A study of Mus musculus with 2 samples.

Results

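Ribosome biogenesis and RNA polymerase I genes were examined in mouse embryonic stem cells as a set of 38 genes among the 43346 genes of the deposited tables. The members were taken by symbol, through the gene identifiers of the tables and GENCODE M21, and all 38 were found. Total RNA was sequenced from ES-E14, a male embryonic stem line of mouse strain 129/Ola, in 2 libraries that form 1 group; no treatment, genotype change or second cell type was part of the labels, and the age is given as unknown. The libraries are numbered as biological replicates 1 and 2, yet both cite the same source sample, so their spread could be technical. Genes received 43163300 expected counts in replicate 1 and 45573512 in replicate 2. With a single group, levels are described with the value of each library and no p-value was computed.

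Ribosomes are assembled in the nucleolus, where RNA polymerase I transcribes the repeated ribosomal RNA genes into a long precursor. Small nucleolar ribonucleoproteins (snoRNPs) guide chemical marks onto that precursor, and processing factors cut it and fold it into the small and the large subunit. Embryonic stem cells divide fast and are known for large nucleoli. The 38 members were sorted by role into 7 nucleolar proteins, 7 snoRNP proteins, 10 factors of small-subunit processing, 6 factors of large-subunit processing, and 8 genes of RNA polymerase I with its initiation factors.

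All 38 members stood at 1 TPM (a transcript abundance relative to all transcripts of the library and corrected for length) or more in both libraries, where 46.3% of 21474 protein-coding genes did. The median member had 22.3 TPM in replicate 1 and 25.0 TPM in replicate 2, against 0.76 and 0.94 TPM in replicates 1 and 2 for all protein-coding genes. Against the 10480 protein-coding genes that averaged at least 1 TPM, the members also lay in the upper range, since the medians of those genes were 5.33 and 6.36 TPM in replicates 1 and 2. By mean TPM the lowest member, Utp15, ranked at percentile 75.0 of all protein-coding genes and the highest, Npm1, at percentile 99.7. Together the members received 0.536 ± 0.0542% of all expected counts (SD, n = 2), and their TPM summed to 1617 in replicate 1 and 2112 in replicate 2.

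The snoRNP proteins were the highest of the 5 roles, with medians of 65.1 TPM in replicate 1 and 71.1 TPM in replicate 2. Nucleolar proteins had medians of 23.0 TPM in replicate 1 and 34.3 TPM in replicate 2. RNA polymerase I genes had 23.3 TPM in replicate 1 and 27.5 TPM in replicate 2, so the order of these 2 roles differed between the libraries. Large-subunit factors had medians of 19.1 and 21.6 TPM in replicates 1 and 2. Small-subunit factors were lowest, with medians of 15.2 TPM in replicate 1 and 18.7 TPM in replicate 2. Single genes spread far more than the roles did: the nucleolar proteins alone ran from 12.5 to 488 TPM by mean.

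**Figure D1:**
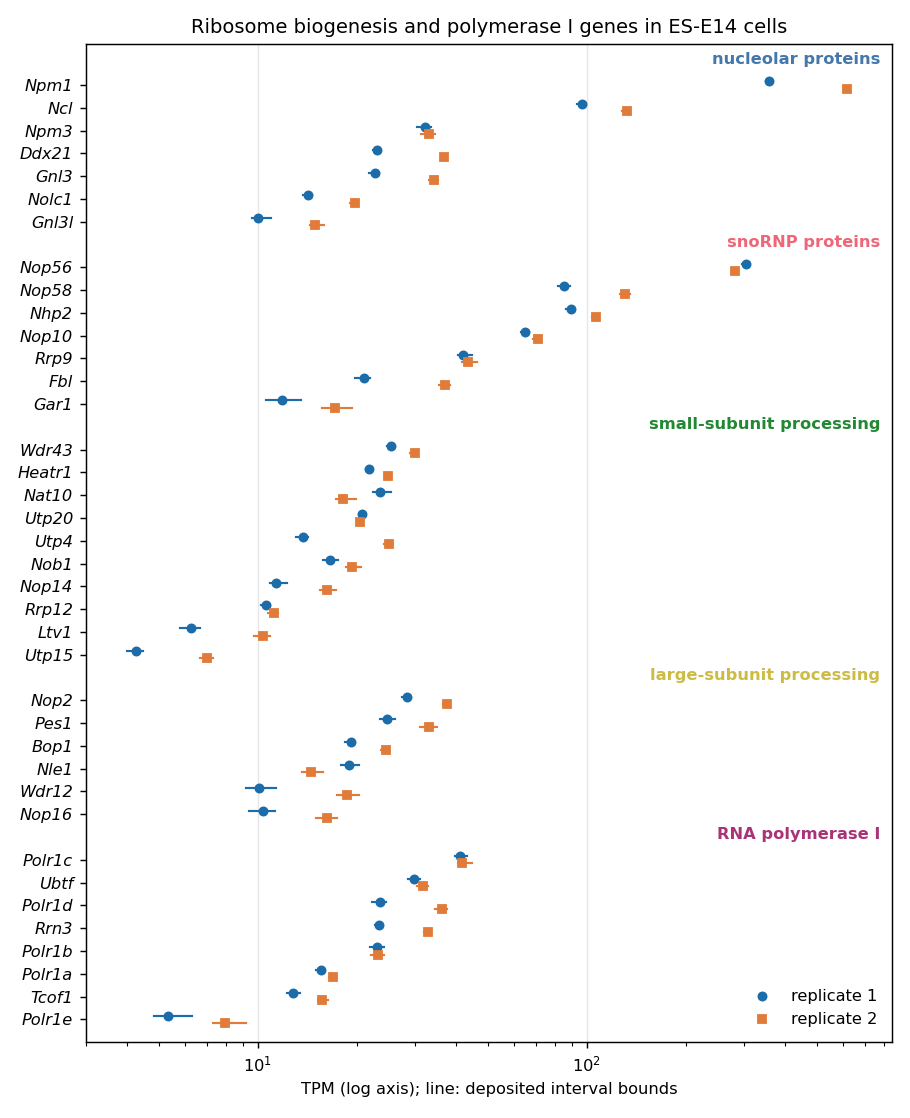
TPM of each of the 38 members (log axis) in replicate 1 (circles) and replicate 2 (squares), grouped by role and ordered by mean within a role, with lines for the deposited interval bounds of each library. Npm1, Nop56, Ncl and Nop58 have the highest mean levels, and Utp15 has the lowest, with 4.27 and 7.03 TPM in replicates 1 and 2.

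Npm1 encodes nucleophosmin, an abundant nucleolar chaperone of histones and ribosomal proteins, and was the highest member. Npm1 (ENSMUSG00000057113, chr11:33152287-33163206, minus strand on GRCm38, the same assembly as mm10) had 358 TPM in replicate 1 and 618 TPM in replicate 2, from 27680 expected counts in replicate 1 and 46344 in replicate 2. The 2 libraries lay far apart for this gene, with deposited bounds of 351 to 361 TPM in replicate 1 and 607 to 620.2 TPM in replicate 2. The files state no level for these bounds, which are given within each library and do not cover the spread between libraries. Npm3, a nucleoplasmin relative that binds nucleophosmin, had 32.2 TPM in replicate 1 and 33.2 TPM in replicate 2, which overlapped by the deposited bounds. Its mean of 32.7 ± 0.714 TPM (SD, n = 2) was far below that of Npm1.

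Ncl encodes nucleolin, an RNA-binding protein that acts on ribosomal chromatin and on the precursor RNA. Ncl (ENSMUSG00000026234, chr1:86344719-86359400, minus strand) had 97.1 TPM in replicate 1 and 132 TPM in replicate 2, and was the third member in order of mean level, although most of that level was assigned to transcript models other than its coding ones, as described with the transcripts. Nolc1, a chaperone of snoRNPs that shuttles between nucleolus and Cajal bodies, had 14.3 TPM in replicate 1 and 19.7 TPM in replicate 2. Ddx21, a DEAD-box RNA helicase active at ribosomal genes and on snoRNAs, had 23.02 TPM in replicate 1 and 36.8 TPM in replicate 2. Both genes were lower in replicate 1, beyond their deposited bounds.

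Gnl3 encodes nucleostemin, a nucleolar GTPase described in stem cells and dividing cells, and had 22.7 TPM in replicate 1 and 34.3 TPM in replicate 2. Its relative Gnl3l, a GTPase of the same family, had 10.1 TPM in replicate 1 and 14.9 TPM in replicate 2. In both libraries the level of Gnl3 was more than that of Gnl3l, and both were lower in replicate 1 than in replicate 2. All 7 nucleolar genes were lower in replicate 1 on the TPM scale, with a median difference of -0.53 in log2(TPM + 1). On that scale 71.7% of the 10480 protein-coding genes that averaged at least 1 TPM were lower, with a median of -0.23. Rescaling to protein-coding genes left 6 of the 7 lower, with a median of -0.27. Of the 10480 genes 49.6% were then lower, with a median of 0.01.

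Box C/D snoRNPs, which add methyl groups to ribosomal RNA, share the core proteins fibrillarin, Nop56 and Nop58. Nop56 (ENSMUSG00000027405, chr2:130274430-130279313, plus strand) had 304 TPM in replicate 1 and 283 TPM in replicate 2 and, unlike most members, was higher in replicate 1, with bounds of 297 to 310.1 TPM in replicate 1 and 276 to 289 TPM in replicate 2. Nop58 (ENSMUSG00000026020, chr1:59684971-59719044, plus strand) had 85.1 TPM in replicate 1 and 131 TPM in replicate 2. Nop56 and Nop58 pair with each other in the particle, and in replicate 1 Nop56 was higher and Nop58 lower than in replicate 2, both beyond their bounds.

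Fbl encodes fibrillarin, the methyltransferase of these particles. Fbl (ENSMUSG00000046865, chr7:28169710-28179269, plus strand) had 20.99 TPM in replicate 1 and 37.2 TPM in replicate 2, from 1635 expected counts in replicate 1 and 2753 in replicate 2. This level is uncertain, because other genes carry near-identical sequence. A transcript of Tulp4 carries 690 bases that match the Fbl transcript at 99.6% identity, and Tulp4 itself received 1569 counts in replicate 1 and 3008 in replicate 2. Those counts cover the whole of Tulp4, and how many fell on the matching stretch was not tested. Of the processed pseudogenes, Gm5812 received 85.64 counts in replicate 1 and 176.79 in replicate 2, and Gm6211 11 in replicate 1 and 7 in replicate 2. The expected counts of Fbl (1635.36 and 2753.21 in replicates 1 and 2) and Gm5812 were fractional, and those of Tulp4 were whole. How reads were divided between these genes was not tested. Rrp9, a protein particular to the U3 snoRNP that works in small-subunit processing, had 42.2 TPM in replicate 1 and 43.5 TPM in replicate 2 with overlapping bounds.

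Box H/ACA snoRNPs convert uridine to pseudouridine and hold Nop10, Nhp2 and Gar1 around the enzyme dyskerin. Nhp2 had 89.7 TPM in replicate 1 and 107 TPM in replicate 2. Nop10 had 65.1 TPM in replicate 1 and 71.1 TPM in replicate 2, next in order. Gar1 (ENSMUSG00000028010, chr3:129824912-129831396, minus strand) had 11.8 TPM in replicate 1 and 17.2 TPM in replicate 2 and received the fewest reads of all members, with 434 expected counts in replicate 1 and 748 in replicate 2. Gar1 thus stood well below its 2 partner genes in both libraries.

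Introns of several members encode the guide RNAs of these particles, and 18 snoRNA genes of GENCODE M21 lie inside 5 members: 5 in Nop56, 4 in Nop58, and 3 each in Ncl, Gnl3 and Wdr43. Of these, 6 are shown. The choice holds 5 that carry the boxes of the classes whose proteins are described here: 3 of box C/D (capitals mark TGATGA, searched in the first 25 bases, and CTGA, searched in the last 15) and 2 of box H/ACA (capitals mark the ACA near the 3′ end). Gm23187, in which CTGA but not TGATGA was found in these windows, is shown because it lies inside transcript models of its host. The DNA strand is given 5′ to 3′ from GENCODE M21 on GRCm38.
Snord82: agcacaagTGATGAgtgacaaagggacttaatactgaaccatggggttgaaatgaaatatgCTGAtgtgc
Snord110: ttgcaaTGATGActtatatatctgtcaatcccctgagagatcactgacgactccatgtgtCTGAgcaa
Snord11: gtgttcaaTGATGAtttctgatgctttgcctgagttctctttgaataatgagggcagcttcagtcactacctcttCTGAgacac
Gm23187: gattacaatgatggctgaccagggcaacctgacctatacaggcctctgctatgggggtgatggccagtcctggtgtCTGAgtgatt
Snora75: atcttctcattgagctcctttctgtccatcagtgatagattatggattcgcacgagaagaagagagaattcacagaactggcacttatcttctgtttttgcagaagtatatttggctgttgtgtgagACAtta
Gm24451: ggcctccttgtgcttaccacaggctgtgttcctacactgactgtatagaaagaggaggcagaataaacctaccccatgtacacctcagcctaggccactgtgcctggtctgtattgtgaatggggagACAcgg
Snord82 lies in Ncl at chr1:86356261-86356330 (minus strand), Snord110 in Nop56 at chr2:130275506-130275573 (plus strand) and Snord11 in Nop58 at chr1:59704790-59704873 (plus strand). Gm23187 lies in Nop56 at chr2:130277195-130277280 (plus strand), Snora75 in Ncl at chr1:86351169-86351301 (minus strand) and Gm24451 in Nop56 at chr2:130276237-130276369 (plus strand).

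The libraries gave almost no measurement of these guide RNAs. All 18 snoRNA genes had an effective length of 0 bases in both libraries, so no TPM could be formed and each is listed at TPM 0. Gm24451 was the only one with reads, 16 expected counts in replicate 1 and 10 in replicate 2, and the other 17 had 0 counts. Some host transcript models include a snoRNA: 6 of 19 models of Nop56 did and took 26.0 ± 1.62% of its TPM, 3 of 15 models of Nop58 took 14.9 ± 4.995%, and 1 of 6 models of Ncl, Ncl-206, took 10.9 ± 3.63% (SD, n = 2 each). Reads on those models cannot be told apart as host RNA or snoRNA precursor. The models of Gnl3 and Wdr43 held none.

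The factors of small-subunit processing were led by Wdr43, Heatr1, Nat10 and Utp20, whose means ran from 20.6 to 27.7 TPM. Wdr43, Heatr1, Utp4 and Utp15 belong to the complex that binds first to the nascent precursor. Wdr43 had 25.4 TPM in replicate 1 and 29.96 TPM in replicate 2. Heatr1 had 21.9 TPM in replicate 1 and 24.9 TPM in replicate 2. Utp4 had 13.7 TPM in replicate 1 and 25.1 TPM in replicate 2 and its difference of -0.82 in log2(TPM + 1) was among the largest of the members. Utp15 (ENSMUSG00000041747, chr13:98246845-98263041, minus strand) had 4.27 TPM in replicate 1 and 7.03 TPM in replicate 2 and was the lowest of the 38 in both libraries, and the only one under 5 TPM in a library. Levels within this 1 complex thus ran from 5.65 TPM for Utp15 to 27.7 TPM for Wdr43 by mean.

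Nop14 and Utp20 are parts of the small-subunit processome. Nop14 had 11.4 TPM in replicate 1 and 16.3 TPM in replicate 2. Utp20 had 20.8 TPM in replicate 1 and 20.5 TPM in replicate 2 and its bounds overlapped. Rrp12, which takes part in the maturation and export of the pre-ribosomal particles, had 10.6 TPM in replicate 1 and 11.2 TPM in replicate 2, again with overlapping bounds. Nat10, which acetylates cytidines of small-subunit ribosomal RNA, had 23.6 TPM in replicate 1 and 18.2 TPM in replicate 2, one of 3 members whose bounds lay wholly above in replicate 1. Its coding transcripts alone had 9.64 TPM in replicate 1 and 9.94 TPM in replicate 2.

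Nob1 and Ltv1 act late, on the pre-small subunit in the cytoplasm. Nob1, the endonuclease that makes the mature end of small-subunit ribosomal RNA, had 16.6 TPM in replicate 1 and 19.3 TPM in replicate 2. Ltv1, an assembly factor that leaves before final maturation, had 6.26 TPM in replicate 1 and 10.4 TPM in replicate 2 and was the third lowest member by mean. Of the 10 small-subunit genes, 8 were lower in replicate 1 on the TPM scale, and 4 after rescaling to protein-coding genes. Of the 10480 protein-coding genes that averaged at least 1 TPM, 71.7% and 49.6% were lower on these 2 scales.

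Bop1, Pes1 and Wdr12 form the PeBoW complex, which is needed for processing of the large-subunit RNAs. Pes1 had 24.8 TPM in replicate 1 and 33.1 TPM in replicate 2. Bop1 had 19.1 TPM in replicate 1 and 24.5 TPM in replicate 2. Wdr12 had 10.1 and 18.7 TPM in replicates 1 and 2, the lowest of the 3 and, at -0.83, the largest difference of any member on the TPM scale. Its expected counts stood at 2561 in replicate 1 and 3265 in replicate 2, and on the count scale with edgeR's TMM factors its difference was -0.12. A coding model of 770 bases, Wdr12-207, took 11.7% of its TPM in replicate 1 and 29.8% in replicate 2, and the part of this shift in the TPM difference was not tested. The TPM of the 3 partners kept the order Pes1, Bop1, Wdr12 in both libraries.

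Nop2, a methyltransferase of large-subunit ribosomal RNA, was the highest large-subunit member with 28.4 TPM in replicate 1 and 37.6 TPM in replicate 2. Nop16, a nucleolar factor of the early large subunit, had 10.4 TPM in replicate 1 and 16.2 TPM in replicate 2. Nle1, whose yeast counterpart binds the ATPase Rea1 during large-subunit maturation, had 18.98 TPM in replicate 1 and 14.6 TPM in replicate 2 and was higher in replicate 1 beyond its bounds.

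RNA polymerase I genes ran from 6.64 to 41.6 TPM by mean, a narrower range than that of the nucleolar and snoRNP genes. The ranges of small-subunit factors (5.65 to 27.7 TPM) and large-subunit factors (13.3 to 33.0 TPM) were narrower still. Polr1a and Polr1b encode the catalytic core of the enzyme. Polr1a had 15.5 TPM in replicate 1 and 16.98 TPM in replicate 2. Polr1b had 23.1 TPM in replicate 1 and 23.2 TPM in replicate 2 and its libraries overlapped. Polr1c and Polr1d encode assembly subunits shared with RNA polymerase III. Polr1c had 41.3 TPM in replicate 1 and 41.9 TPM in replicate 2 and was the highest of the 8. Polr1d had 23.5 TPM in replicate 1 and 36.3 TPM in replicate 2, lower in replicate 1 beyond its bounds. The processed pseudogene Gm12751 matches 381 bases of Polr1d at 100% identity and received 7.83% as many counts as Polr1d in replicate 1 and 13.1% in replicate 2.

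Polr1e encodes a subunit that works in initiation and elongation and is not part of the catalytic core. It had 5.33 TPM in replicate 1 and 7.95 TPM in replicate 2 and was the lowest of the 8. The initiation factors were higher. Ubtf, an HMG-box protein that coats ribosomal genes, had 29.9 TPM in replicate 1 and 31.7 TPM in replicate 2 with overlapping bounds. Rrn3, which links polymerase I to its promoter factors, had 23.4 TPM in replicate 1 and 32.97 TPM in replicate 2. Tcof1, which encodes the nucleolar phosphoprotein treacle that binds Ubtf and polymerase I, had 12.8 TPM in replicate 1 and 15.7 TPM in replicate 2.

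Set beside the other polymerases, the 5 Polr1 members ran from 6.64 to 41.6 TPM by mean, and the 3 further polymerase I subunits from 5.70 to 16.5 TPM, with 14.3 and 18.7 TPM in replicates 1 and 2 for Polr1h (Znrd1 in older annotation) as the highest of them. The 5 subunits shared by all 3 enzymes had a median of 23.0 TPM, with 63.1 and 68.3 TPM in replicates 1 and 2 for Polr2f. RNA polymerase II subunits had a median of 26.4 TPM, and its largest subunit Polr2a had 13.8 and 17.1 TPM in replicates 1 and 2, close to Polr1a. RNA polymerase III subunits had a median of 5.98 TPM, and the largest, Polr3a, had 10.9 and 10.9 TPM in replicates 1 and 2. Polr1a was above Polr3a in both libraries, while Polr1a and Polr2a were ordered differently in the 2 libraries.

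**Figure D2:**
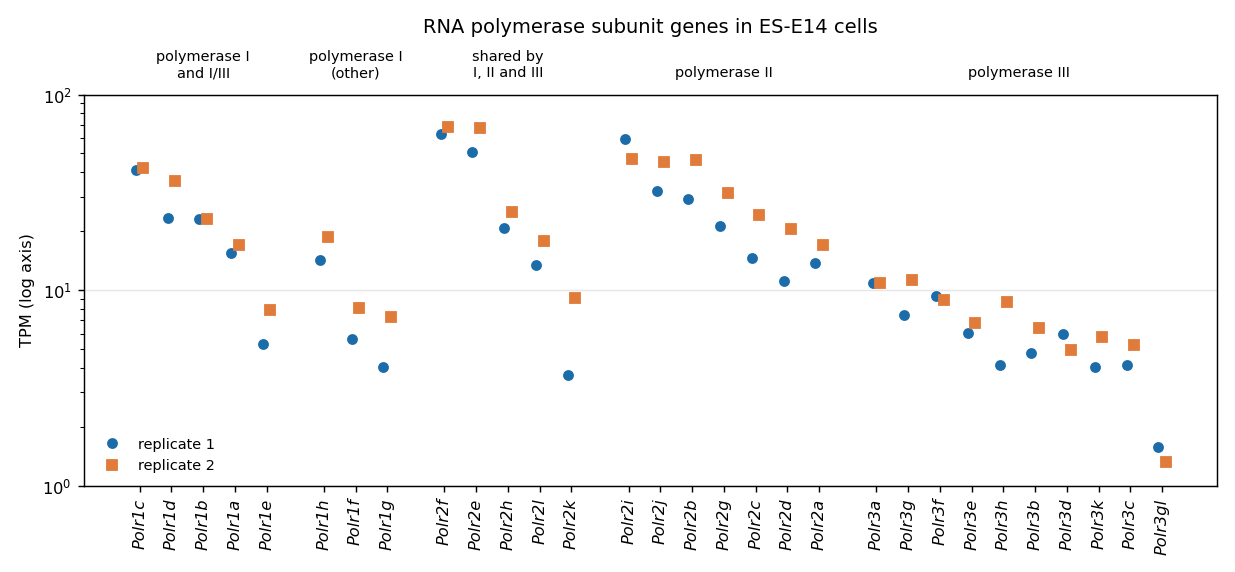
TPM (log axis) of RNA polymerase subunit genes in replicate 1 (circles) and replicate 2 (squares), from the polymerase I members at the left to polymerase III at the right. Polymerase III subunits lie lowest, with a median of 5.98 TPM, against 26.4 TPM for polymerase II.

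Of further genes of the pathway, listed by role, 101 were matched and all 101 stood at 1 TPM or more in both libraries. Their median was 14.97 TPM by mean, against 23.3 TPM for the 38 members. None of the 101 was 2-fold apart between the libraries, where 3.12% of the 10480 protein-coding genes that averaged at least 1 TPM were. On the TPM scale 96 were lower in replicate 1, where 71.7% of the 10480 genes were. After rescaling to protein-coding genes 71 were lower, where 49.6% of the 10480 were. Small-subunit genes (38) had a median of 14.3 TPM, with Emg1, a methyltransferase of small-subunit ribosomal RNA, highest at 54.3 and 77.6 TPM in replicates 1 and 2 and the helicase gene Dhx37 lowest by mean at 3.17 and 4.45 TPM in replicates 1 and 2 (Nol10 was lower in replicate 1, at 2.80 TPM). Large-subunit genes (43) had a median of 17.2 TPM, with the methyltransferase gene Ftsj3 highest at 77.9 and 70.3 TPM in replicates 1 and 2 and the GTPase gene Efl1 lowest at 2.54 and 3.91 TPM in replicates 1 and 2. The 11 snoRNP genes had a median of 14.6 TPM, and their highest was Snu13, a core protein of box C/D particles, with 62.4 and 96.7 TPM in replicates 1 and 2. Dkc1, the pseudouridine synthase that Nop10, Nhp2 and Gar1 surround, had 45.9 and 47.00 TPM in replicates 1 and 2, between Nop10 and Gar1. The 9 polymerase I genes had a median of 6.34 TPM, from 2.90 and 3.34 TPM in replicates 1 and 2 for Taf1b to 34.9 and 50.4 TPM in replicates 1 and 2 for Taf1d, both subunits of the promoter selectivity factor.

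Transcript models show what the gene levels are made of. The 38 members have 173 transcript models, and 16 members have a single one. For 36 members the leading transcript was annotated as protein-coding. For Ncl and Gar1 it was a retained-intron model: Ncl-205, of 601 bases, took 35.2% of Ncl in replicate 1 and 39.3% in replicate 2, and Gar1-205, of 418 bases, took 70.0% of Gar1 in replicate 1 and 54.0% in replicate 2. Over the 22 members with several models, the median share of TPM in coding transcripts was 77.1% in replicate 1 and 81.7% in replicate 2, against 83.5% and 87.0% in replicates 1 and 2 over 7815 protein-coding genes with several models.

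**Figure D3:**
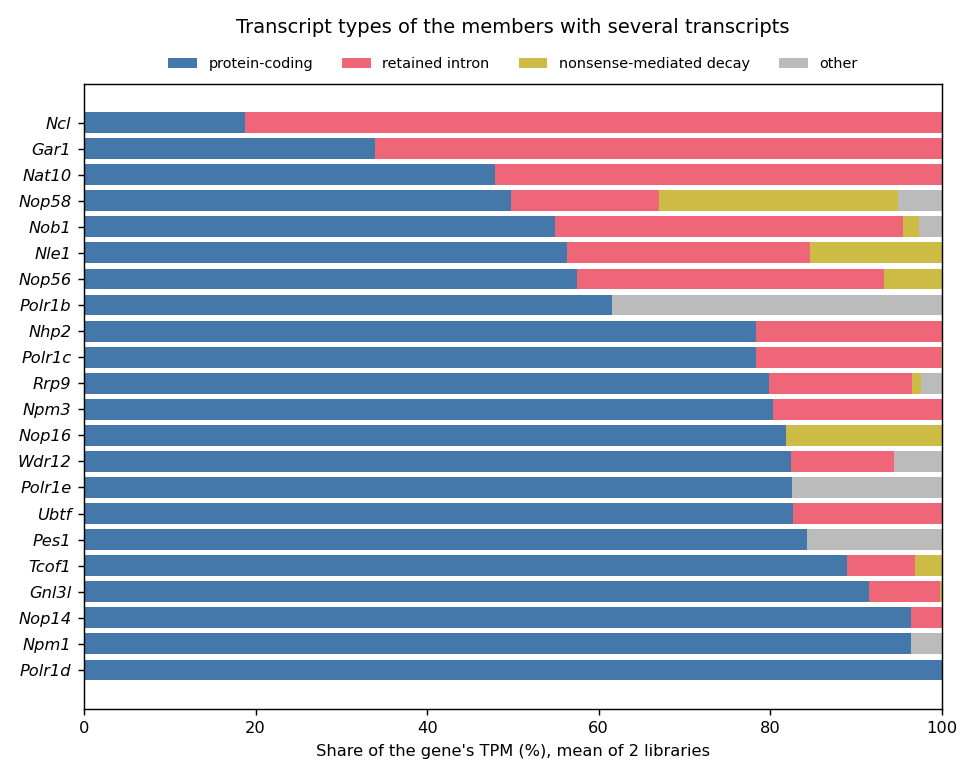
Share of each gene's TPM (percent, mean of 2 libraries) by GENCODE M21 transcript type for the 22 members with several transcript models, ordered by the protein-coding share. Ncl, Gar1, Nat10 and Nop58 are under 50% protein-coding, and Polr1d is nearly all protein-coding.

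Coding transcripts held under 50% of the TPM of 4 of those 22 members (18.2%, where 13.1% of the 7815 genes did). The share was 18.8% for Ncl, 33.9% for Gar1, 47.8% for Nat10 and 49.8% for Nop58. Counted in reads instead of TPM, coding models held 48.7% of Ncl, 65.9% of Gar1, 62.6% of Nat10 and 79.8% of Nop58, so short models weighed more in TPM than in reads. The coding model Ncl-201 is 8202 bases long and received 7153 counts in replicate 1 and 9534 in replicate 2, while the retained-intron model Ncl-202, of 3072 bases, received 5213 counts in replicate 1 and 8950 in replicate 2. In Nop58 a nonsense-mediated decay model of 373 bases, Nop58-205, took 24.8% in replicate 1 and 30.6% in replicate 2. Intron-containing models can also hold reads from unspliced RNA, which total RNA contains, and the 2 were not told apart here.

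Taking coding transcripts alone, Npm1 remained first with a mean of 471 TPM and Nop56 second with 168 TPM. Ncl, the third by gene level, ranked 20 with 20.5 TPM in replicate 1 and 21.7 TPM in replicate 2. This rank depends on model length, since Ncl-201 is 8202 bases long. In reads, the coding models of Ncl held 7508 counts in replicate 1 and 9746 in replicate 2. Those of Nhp2, which ranked above it, held 4654 in replicate 1 and 5663 in replicate 2. Gar1 was lowest of the 38 by mean and in replicate 1, with 3.10 TPM in replicate 1 and 7.16 TPM in replicate 2, while Polr1e (6.67 TPM) and Utp15 (7.03 TPM) were lower than Gar1 in replicate 2. Nhp2, Nop10 and Nop58 followed Nop56 with means of 77.2, 68.1 and 54.5 TPM.

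**Figure D4:**
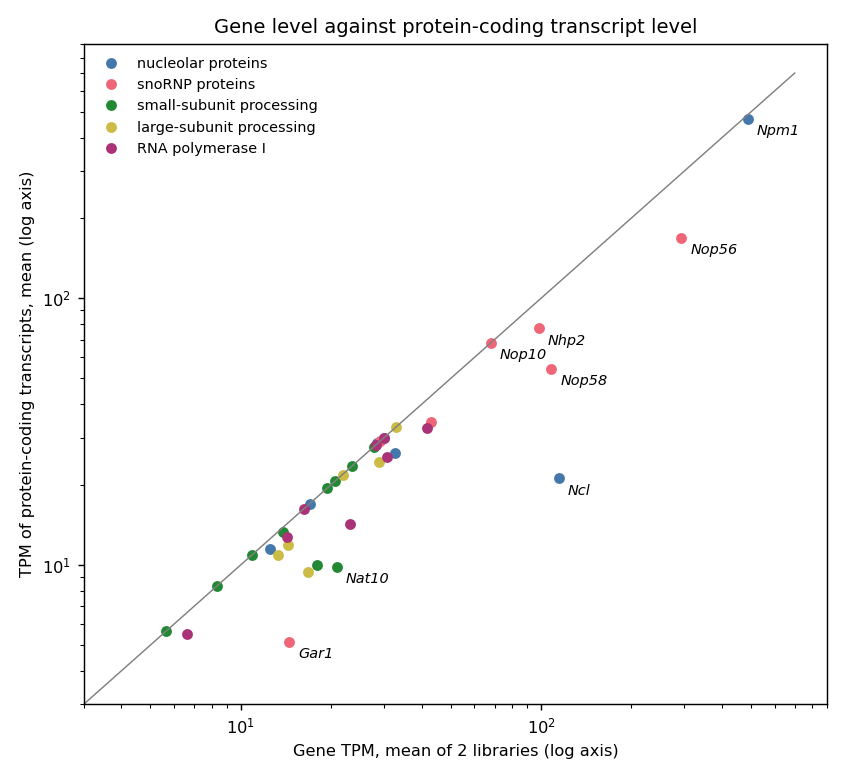
Mean TPM over all transcripts of each member (horizontal, log axis) against mean TPM over its protein-coding transcripts (vertical, log axis), coloured by role, with the line of equality. Ncl falls farthest below the line, at 21.1 TPM of 115 TPM, and Gar1 is lowest by this mean at 5.13 TPM.

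The same transcript led in both libraries for 18 of the 22 members. In Ubtf, Ubtf-202 took 21.3% in replicate 1 and 13.7% in replicate 2, while Ubtf-206, which is shorter, took 21.03% in replicate 1 and 32.7% in replicate 2. In Polr1e, Polr1e-204 took 37.5% in replicate 1 and 24.9% in replicate 2, and Polr1e-202 took 11.6% in replicate 1 and 42.5% in replicate 2. The leader also differed for Npm1 and Wdr12, where all models concerned are coding. The coding share was lower in replicate 1 for 17 of the 22 members (77.3%), where it was lower for 55.6% of the 7815 genes.

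Promoters were examined for the E-box CACGTG, which reads the same on both strands and which Myc and other bHLH factors bind, in the window from 250 bases before to 50 after the RefSeq start (GRCm38.p6). Of the 38 members 32 had a promoter entry (Npm1, Gnl3l, Bop1, Rrp12, Fbl and Tcof1 had none), and 8 of those 32 (25.0%) held CACGTG, against 8.09% of all 27025 genes and 12.5% of 8284 protein-coding genes that averaged at least 1 TPM. Counted by window, since some genes have several starts, 20.5% of 39 member windows and 7.15% of 32851 windows held it. By role it was found in 4 of 9 small-subunit, 3 of 5 large-subunit and 1 of 7 polymerase I genes, and in 0 of 5 nucleolar and 0 of 6 snoRNP genes. The matches are shown with up to 12 bases on each side, 5′ to 3′ along the gene, with the E-box in capitals.
Nop2: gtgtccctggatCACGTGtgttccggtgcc
Utp4: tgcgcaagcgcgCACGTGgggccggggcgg
Ltv1: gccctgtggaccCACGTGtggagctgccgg
Utp20: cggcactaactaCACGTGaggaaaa
Pes1: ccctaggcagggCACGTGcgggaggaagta
Nle1: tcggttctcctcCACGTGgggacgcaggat
Wdr43: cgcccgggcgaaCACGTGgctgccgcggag
Relative to the start, the E-box began at -60 in Nop2, at 3 in Pes1, at 16 in Utp4, at 18 in Wdr43, at 24 in Nle1, at 29 in Ltv1 and at 38 in Utp20. Rrn3 was the one member with 2 copies, at -215 and -48, and its 250 bases before the start (chr16:13780449-13780698, plus strand) read as follows.
Rrn3: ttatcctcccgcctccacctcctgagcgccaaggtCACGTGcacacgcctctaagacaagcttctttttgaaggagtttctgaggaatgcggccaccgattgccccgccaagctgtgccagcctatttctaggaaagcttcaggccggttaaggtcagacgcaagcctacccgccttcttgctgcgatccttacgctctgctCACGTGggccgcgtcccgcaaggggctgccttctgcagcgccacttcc
The 8 genes with the motif had a median of 24.2 TPM by mean, close to 25.9 TPM for the 24 members with a promoter entry and no match. A match describes these letters only, and no binding data were used.

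The libraries differed in the members' levels by less than 2-fold throughout. In log2(TPM + 1), replicate 1 minus replicate 2, the members ran from -0.83 for Wdr12 to 0.36 for Nle1, with a median of -0.40, against -0.23 for the 10480 protein-coding genes that averaged at least 1 TPM. None of the 38 was 2-fold or more higher or lower, where 0.544% of those genes were higher and 2.58% lower in replicate 1. The deposited bounds lay wholly above in replicate 1 for 3 members, Nop56, Nat10 and Nle1, where 13.4% of genes did. They lay wholly below in replicate 1 for 28 members, where 50.6% of genes did, and they overlapped for Npm3, Rrp9, Rrp12, Utp20, Polr1b, Polr1c and Ubtf. The 10480 genes were not matched to the members by level, with a median of 5.85 TPM by mean against 23.3 TPM. These shares therefore do not set the members apart from genes of like level.

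The direction depended on the scale. On the TPM scale 34 members were lower and 4 higher in replicate 1, and 71.7% of the 10480 genes were lower. After rescaling to protein-coding genes 21 members were lower and 17 higher, with a median of -0.12. Of the 10480 genes 49.6% were then lower, with a median of 0.01. With TMM factors 22 members were lower and 16 higher, with a median of -0.088. On that scale 51.5% of the genes were lower, with a median of -0.015. By role, the rescaled medians were -0.27 for nucleolar proteins and -0.12 for large-subunit factors, but 0.04 for snoRNP proteins, 0.07 for small-subunit factors and 0.08 for polymerase I genes, so the direction of the last 3 roles turned on that scale. With TMM factors the medians were -0.29 for nucleolar proteins, -0.079 for large-subunit factors, 0.03 for snoRNP proteins, 0.07 for small-subunit factors and -0.0020 for polymerase I genes, of which 4 of 8 were lower in replicate 1.

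**Figure D5:**
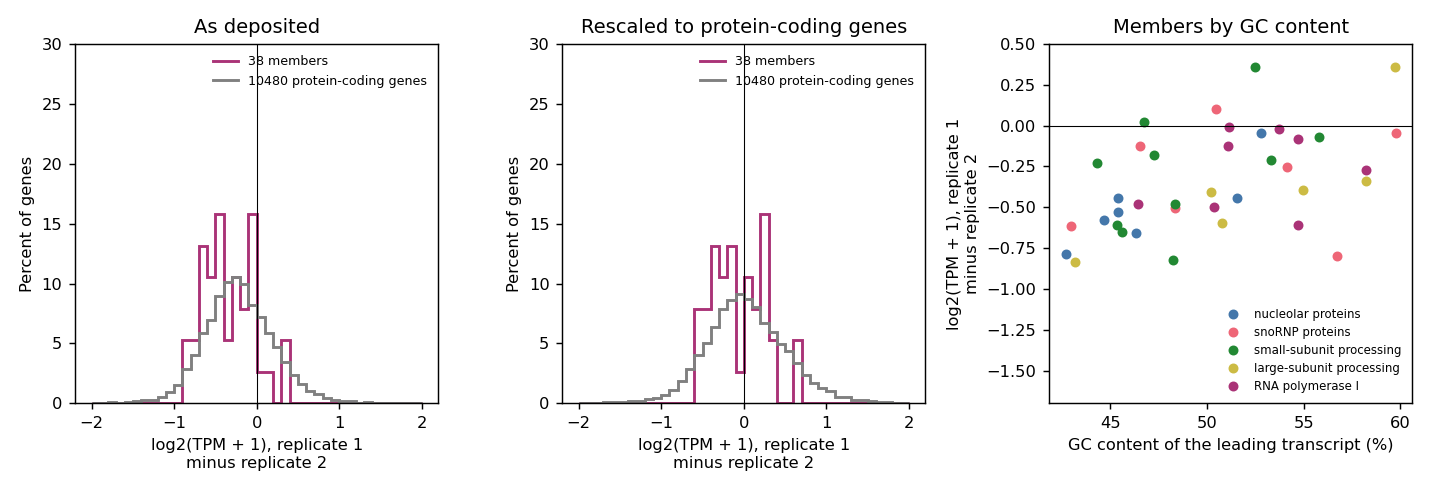
Left and centre, distribution of the difference in log2(TPM + 1), replicate 1 minus replicate 2, for the 38 members and 10480 protein-coding genes, in percent of genes, as deposited and after rescaling to protein-coding genes. Right, the difference on the deposited scale against the GC content (percent) of each member's leading transcript, coloured by role: the 19 members of lower GC content have a median of -0.50 and the 19 of higher GC content -0.12.

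Several properties of the libraries moved with these differences, and their part in them was not tested. The 2 gene models that cover ribosomal RNA, Gm26917 and Gm42418, took 26.4% of counts in replicate 1 and 16.4% in replicate 2. All protein-coding genes together had 193500 TPM in replicate 1 and 238378 TPM in replicate 2. Among members, the 19 with a lower GC content of the leading transcript (42.7 to 50.4%) had a median difference of -0.50, and the 19 with a higher one (50.5 to 59.8%) had -0.12. Across the 38 members Spearman's rho between GC content and the difference was 0.50 and Pearson's r 0.48, as a description of genes that share the same 2 libraries; across 10402 protein-coding genes they were 0.32 and 0.31.

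Cell identity was checked with marker genes. All 8 markers of pluripotent stem cells were present at 1 TPM or more in both libraries, with a summed level of 1021 TPM in replicate 1 and 1106 TPM in replicate 2. Of 10 fibroblast markers, relevant because stem cells may be grown on feeder cells, 5 passed 1 TPM in both libraries, with a summed level of 48.6 TPM in replicate 1 and 165 TPM in replicate 2. Of the 10, 6 were 2-fold or more lower in replicate 1: Acta2, Col1a1, Col1a2, Col3a1, Col5a2 and Pdgfra, with 7.21 and 28.8 TPM in replicates 1 and 2 for Col1a1. Of the 10480 protein-coding genes that averaged at least 1 TPM, 2.58% were 2-fold or more lower in replicate 1, and 71.7% were lower by any amount. Thy1 was higher in replicate 1, with 2.27 and 1.62 TPM in replicates 1 and 2, and Lum had 0 counts in both. Of 5 neural markers 2 passed, and the list summed to 20.4 TPM in replicate 1 and 35.4 TPM in replicate 2. None of 5 endoderm markers passed, and all 5 were lower in replicate 1, with sums of 0.86 and 3.82 TPM in replicates 1 and 2. Some of these rest on few reads, with 3 and 50 counts in replicates 1 and 2 for Foxa2 and 2 and 6 for Afp. None of 5 mesoderm markers passed, and 3 were lower in replicate 1, with sums of 1.2 and 3.32 TPM in replicates 1 and 2. Of 5 blood markers 1 passed, Cd68, with sums of 6.5 and 5.88 TPM in replicates 1 and 2. In bulk RNA fewer cells of a type and less RNA per cell cannot be told apart, and the share of the members' levels that came from other cells was not tested.

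Near-identical copies were found for 10 members by BLAST (90% identity over 200 bases or more). Apart from Fbl and Polr1d, the counts on those copies came to at most 1.46% of the member's own in either library. Of the members, 15 are overlapped by another gene on the opposite strand, such as Nop56 by Idh3b, and 0 by one on the same strand, snoRNA genes aside. No source used here says whether the counting used strand, so reads in those overlaps cannot be told apart by strand.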

How the data were processed

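Both total RNA libraries of ES-E14 cells were used. Per the deposited text records, the reads were aligned to mm10 and annotated with M4; neither aligner nor quantifier is named in the sources used here. Per the file headers, the deposited tables give for each gene and transcript an expected count, TPM, FPKM and an effective length in bases. They also give the authors' posterior mean of TPM with its bounds (signal values; the files state no interval level), and the deposited percent of each gene's level by transcript. Expected counts were rounded to whole numbers for scaling factors only. Rows with a bare number for a name (26248) and spike-in rows (97) were left out.

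GENCODE M21 (GRCm38) gave symbols, types and coordinates, matching 42462 of 43346 genes; promoters came from RefSeq (GRCm38.p6). The 38 members, their 5 roles and the lists of other pathway genes and markers were chosen with earlier results of these data known. Of the other pathway genes Riok2 had no match and was not analysed here. The rule for named genes took all 38 members and, of each other list, the 3 highest, the lowest and those 2-fold apart; of those lists only genes beside a member's result are printed.

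Levels are TPM per library, with mean and SD over 2 libraries. Depth was 43163300 expected counts on genes in replicate 1 and 45573512 in replicate 2; with 2 libraries the SD is itself imprecise. Detection was 1 TPM or more in both libraries. Differences are log2(TPM + 1), replicate 1 minus replicate 2, which understates the differences of low genes, and 2-fold means an absolute value of 1 or more. With 1 group no test was run. Alternatives were TPM limits of 0.5 and 5, posterior mean TPM, FPKM, TPM rescaled to protein-coding genes not on the mitochondrial genome, a pseudocount of 0.1, edgeR 4.0.16 TMM factors and DESeq2 1.42.0 size factors (R 4.3.3), no filter on the background, means of logs, read shares, and each library alone; coding transcripts only was added after seeing the data. BLAST 2.17.0 found copies, and Python 3.11.15 with pandas 2.3.3, numpy 2.4.6 and matplotlib 3.10.9 did the rest. The difference and scaling steps were tested on simulated data. The changes built into those data were larger than any member's, and a library difference in ribosomal RNA was not simulated.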

Additional observations from a re-analysis of the deposited data

Results flagged for a closer look

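Rows named by a number alone, which no comparison uses, held 15 expected counts in replicate 2, above the 3 counts that a count of 0 allows, and 1 in replicate 1.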

How the results depend on the processing

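All 38 members stayed at the detection limit or above under 0.5 TPM, posterior mean TPM, FPKM, rescaled TPM, either library alone and coding transcripts only, and 37 did at 5 TPM. Medians change with the unit and with the genes that set the scale. Protein-coding genes, those of the mitochondrial genome included, held only part of all TPM, 193500 in replicate 1 and 238378 in replicate 2. Rescaling to those not on the mitochondrial genome therefore raises every level. The median member was 39.8 in FPKM and 113 in rescaled TPM. In FPKM the role medians were 50.6 (nucleolar), 116 (snoRNP), 31.7 (small-subunit), 33.0 (large-subunit) and 43.8 (polymerase I), and in rescaled TPM 142, 330, 89.0, 93.7 and 124 in the same order of roles. As means of log values they were 44.8 (nucleolar), 63.2 (snoRNP), 15.4 (small-subunit) and 21.2 (polymerase I). For coding transcripts only, chosen after seeing the data, they were 54.5 (snoRNP), 12.1 (small-subunit), 16.9 (large-subunit) and 20.9 (polymerase I). With one library at a time they ran from 15.2 to 18.7 TPM for small-subunit and from 19.1 to 21.6 TPM for large-subunit factors. SnoRNP proteins kept the highest median under each of these settings. The median member difference was -0.40 on the TPM scale and -0.088 with TMM factors. No member was 2-fold apart in log2 with its pseudocount under any of the 7 alternatives. Of the 10480 protein-coding genes that averaged at least 1 TPM, 2.86% (posterior mean TPM) to 7.08% (pseudocount of 0.1) were. For coding transcripts only, Gar1 had 3.10 TPM in replicate 1 and 7.16 TPM in replicate 2. Its plain ratio is above 2-fold, and the added 1 TPM keeps it under the limit. The median coding share over all 38 members was 93.9% by TPM and 98.6% by expected counts. Without the filter on the background, its median difference was -0.03 in place of -0.23. The protein sequence features planned at the outset were not run. No paired analysis was possible because there is 1 group. Depth sets few limits for members, the lowest of which received 434 counts in a library, while models of effective length 0, such as the snoRNA genes, were beyond measurement. Both libraries cite 1 source sample, so whether their spread includes that between cultures is not known.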

Other observations

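RNA polymerase III carries either Polr3g or its relative Polr3gl in the same place. Polr3g had 7.46 TPM in replicate 1 and 11.2 TPM in replicate 2, against 1.58 TPM in replicate 1 and 1.33 TPM in replicate 2 for Polr3gl, and the libraries of the 2 genes did not overlap. Polr3gl was the lowest of the 10 polymerase III genes listed.

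Polr2k, a small subunit shared by all 3 nuclear RNA polymerases, was the one gene of the pathway and polymerase lists that was 2-fold apart, with 3.67 TPM in replicate 1 and 9.14 TPM in replicate 2, from 104 and 242 expected counts in replicates 1 and 2. The processed pseudogene Gm14681, which matches 307 bases of the Npm1 transcript at 96.7% identity, had 181 expected counts in replicate 1 and 541 in replicate 2.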
